A study of Mus musculus with 65 samples.

Results

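Among 11 hindbrain libraries from mice treated with an antisense oligonucleotide (ASO) against Atxn1, the libraries with less Atxn1 mRNA had more mRNA of phagocytic microglial genes and of astrocyte transport and metabolic genes. The 11 libraries are the ASO-treated knockin libraries at 28 weeks, 7 of medulla and 4 of pons, out of 65 libraries in the series. The libraries were taken by their labels, and genes were selected on the relation of their level to that of Atxn1 across them. The Atxn1 values set the order of the libraries and are a description, with no test; the counts, slopes and p-values of the genes called at 28 weeks, permutation p-values included, likewise describe genes selected on these same values. All mice were C57BL/6J. The knockin mice carried the Atxn1[82Q] allele, in which the mouse gene holds an expanded CAG repeat, and they received either the ASO or vehicle. Wild type mice received vehicle. At 28 weeks, medulla had 7 ASO-treated knockin, 8 vehicle-treated knockin and 8 wild type libraries in 2 labelled batches, and pons had 4 of each. In medulla, ASO replicates 1 to 4 are labelled batch 1 and replicates 5 to 7 batch 2. The ASO-treated knockin libraries at 18 weeks (4 of cerebellum, 3 of medulla and 3 of pons) served as libraries that the choice did not use.

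Ataxin, the protein of Atxn1, binds the transcriptional repressor Capicua, and the expanded polyglutamine tract encoded by the CAG repeat causes spinocerebellar ataxia. An ASO pairs with its target RNA and lets RNase H cut it. Microglia, the resident macrophages of the brain, can take on a phagocytic state that depends on the receptor Trem2 and its signalling partner Tyrobp and is marked by Clec7a, Itgax, Apoe and Cd68. Astrocytes clear glutamate, potassium and water from the extracellular space through Slc1a2, Kcnj10 and Aqp4 and turn glutamate into glutamine with Glul.

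Atxn1 (ENSMUSG00000046876, minus strand of chromosome 13, 45549755 to 45965008 on GRCm38) varied widely among the ASO libraries. Levels are CPM, read counts scaled for library depth and composition. In medulla, ASO replicates 1 to 4 held 24.8, 49.3, 30.9 and 26.5 CPM, and replicates 5 to 7 held 32.9, 30.4 and 33.5 CPM. In pons, ASO replicates 1 to 4 held 26.7, 52.4, 36.8 and 30.1 CPM. The library labelled ASO replicate 2 was the highest ASO library in each tissue and went against its label. In medulla it stood above all 8 vehicle-treated knockin libraries (39.98 to 47.7 CPM), and in pons it stood inside their range (45.2 to 60.9 CPM). The other 9 ASO libraries lay below every vehicle-treated knockin library of their tissue. In wild type, Atxn1 was 30.3 to 38.6 CPM (medulla) and 39.2 to 42.7 CPM (pons), so the ASO libraries spanned the range from below wild type to knockin levels.

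**Figure D1:**
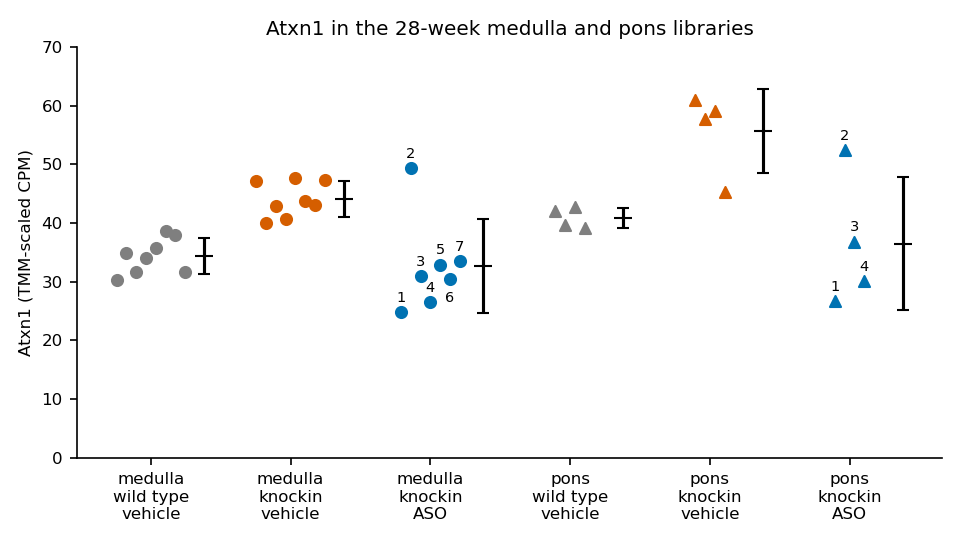
Level of Atxn1 (y axis, TMM-scaled CPM) in each 28-week library, arranged along the x axis by group within tissue. Each point is a library, the digit beside an ASO point is its replicate number, and each bar shows a mean with its SD; replicate 2 (49.3 CPM in medulla, 52.4 CPM in pons) tops the ASO libraries of either tissue.

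The 11 libraries are not 11 independent points. The numbers in their column headers take 7 distinct values, and 4 of these occur in a medulla library of batch 1 and in the pons library with the same replicate number. Both libraries labelled replicate 2 share such a number. The labels do not state whether a shared number means a shared mouse or whether other libraries came from separate mice. If it does, p-values over 11 libraries are too small, and p-values measure only the spread between these libraries. Exact permutation tests were therefore run with Atxn1 values exchanged within medulla batch 1, medulla batch 2 and pons (3456 orders, smallest p 0.00029) and also with medulla batch 1 and pons exchanged together by number (144 orders, smallest p 0.0069). Library totals ranged from 62.6 to 99.4 M counts. As a check of the dissection, the mean log2 CPM of 17 tested Hox genes, which mark the medulla, was 3.32 to 3.69 in medulla ASO replicates 1, 2, 4 and 5 and 1.97 in replicate 3. It was 0.007 and -0.204 in replicates 6 and 7, close to the pons ASO libraries (-1.01 to 0.239), so the defining markers of the labelled tissue were low in these libraries.

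Over 21338 genes tested, edgeR's quasi-likelihood test of the slope on Atxn1 called 122 genes after Benjamini-Hochberg adjustment (0.572%). A slope is the log2 change of a gene per doubling of Atxn1, with tissue and medulla batch as terms. Of the called genes, 114 had a negative slope (0.534%), meaning that they were higher where Atxn1 was lower, and 8 had a positive slope (0.0375%). The median slope over all genes was -0.0015, and 10751 of them were negative. At an unadjusted p under 0.05 there were 1971 genes. Without both libraries labelled replicate 2, no gene passed (670 at an unadjusted p under 0.05 in edgeR), although all 114 genes of negative slope kept that sign and 63 of them had an unadjusted p under 0.05. Leaving out 1 library at a time gave 6 calls without pons replicate 2, 13 without medulla replicate 2, 64 without medulla replicate 4, and 183 without pons replicate 4. Without the 3 medulla libraries low in Hox genes (replicates 3, 6 and 7) 120 genes were called, and 247 when pons replicate 4, which was 0.68 below the pons mean of these genes, was left out as well. DESeq2 called 399 genes, 333 of them negative. With the shared header number as a correlation, limma-voom called 84 genes. With that number as a fixed term over the 8 libraries of medulla batch 1 and pons, no gene passed (2406 at an unadjusted p under 0.05). Atxn1 ranked the replicates in the same order in both, so the fixed term takes up most of the Atxn1 difference. That fit therefore cannot decide on the relation. At the edge of the call, Myh6 and Adgre1 were inside with adjusted p-values of 0.0481 and 0.0483, and Entpd2 and Jun were outside with 0.0506 and 0.0538.

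Genes of phagocytic microglia had the lowest median slope of the 33 gene lists. Of 19 genes that mark phagocytic or activated microglia, 11 were called, all with negative slopes (0.534% over all genes); the other 8 did not pass, and all 19 slopes were negative with a median of -1.38. Of 17 genes that mark microglia at rest, 3 were called, Trem2 and C1qc among them, with 15 of 17 slopes negative and a list median of -0.45. In bulk tissue, more cells of a type and more RNA per cell cannot be told apart.

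Clec7a (chromosome 6, 129461591 to 129472779, minus strand) encodes Dectin, a receptor for fungal glucans that phagocytic microglia switch on. In medulla, ASO replicates 1 to 4 held 7.06, 0.677, 2.99 and 6.25 CPM, and replicates 5 to 7 held 1.97, 4.1 and 2.15 CPM. In pons, replicates 1 to 4 held 12, 1.77, 5.07 and 6.09 CPM. The lowest library of each tissue was the one labelled replicate 2, and the highest was replicate 1, which held the least Atxn1. Vehicle-treated knockin ranged from 0.813 to 2.19 CPM (medulla) and from 0.532 to 1.33 CPM (pons), and wild type 0.903 to 2.32 and 0.887 to 1.61 CPM, so only ASO libraries passed 2.32 CPM. The slope was -3.10 ± 0.28 (SE), an 8.56-fold difference per doubling of Atxn1 (adjusted p = 0.00071, exact two-sided permutation p = 0.00058, and 0.014 with medulla and pons exchanged together). It was -3.46 in medulla batch 1, -7.36 in medulla batch 2 and -2.62 in pons. In medulla batch 2, Atxn1 ran only from 30.4 to 33.5 CPM, so that slope reaches far beyond the values it was fitted on. Without both libraries labelled replicate 2 it was -3.26 (unadjusted p = 0.00049, adjusted p = 0.99 in edgeR).

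Trem2 (chromosome 17, 48346401 to 48354147, plus strand), the lipid-sensing receptor of microglia, held 23.1, 11, 17.2 and 19.7 CPM in medulla ASO replicates 1 to 4 and 13.5, 16.5 and 14.6 CPM in replicates 5 to 7. In pons it held 36.2, 12.2, 19.6 and 22.6 CPM in replicates 1 to 4. Vehicle-treated knockin ranged from 10.3 to 13.7 CPM (medulla) and from 10.7 to 12.5 CPM (pons). The libraries labelled replicate 2 lay inside those ranges, and all but 1 of the other 9 ASO libraries lay above them, the exception being medulla replicate 5 at 13.5 CPM. Wild type ranged from 12.69 to 17.55 CPM (medulla) and from 11.99 to 14.66 CPM (pons). Medulla ASO replicates 3, 5, 6 and 7 lay inside the wild type range, and medulla replicates 1 and 4 and pons replicates 1, 3 and 4 above it. The slope was -1.24 ± 0.13 (SE; adjusted p = 0.001, exact two-sided permutation p = 0.00058), and -1.63 without both libraries labelled replicate 2 (unadjusted p = 0.00023, adjusted p = 0.82). Tyrobp, the adaptor through which Trem2 signals, was at 13.5 CPM (medulla) and 17.3 CPM (pons) in the libraries labelled replicate 2, against 17.2 to 29.5 CPM and 24.4 to 45.5 CPM in the other ASO libraries. In medulla the groups overlapped: vehicle-treated knockin replicate 6 held 30 CPM of Tyrobp, above every ASO library, and wild type replicate 8 held 27.4 CPM. Its slope was -1.20 ± 0.15 (adjusted p = 0.0067). Cd68, a glycoprotein of the phagocyte lysosome, went from 5.61 CPM in medulla replicate 2 to 13.2 CPM in medulla replicate 1 and from 7.49 CPM in pons replicate 2 to 25.2 CPM in pons replicate 1. Its slope was -1.38 ± 0.22 (adjusted p = 0.019) and was steeper, -2.44, without both libraries labelled replicate 2 (unadjusted p = 0.00023, adjusted p = 0.82).

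**Figure D2:**
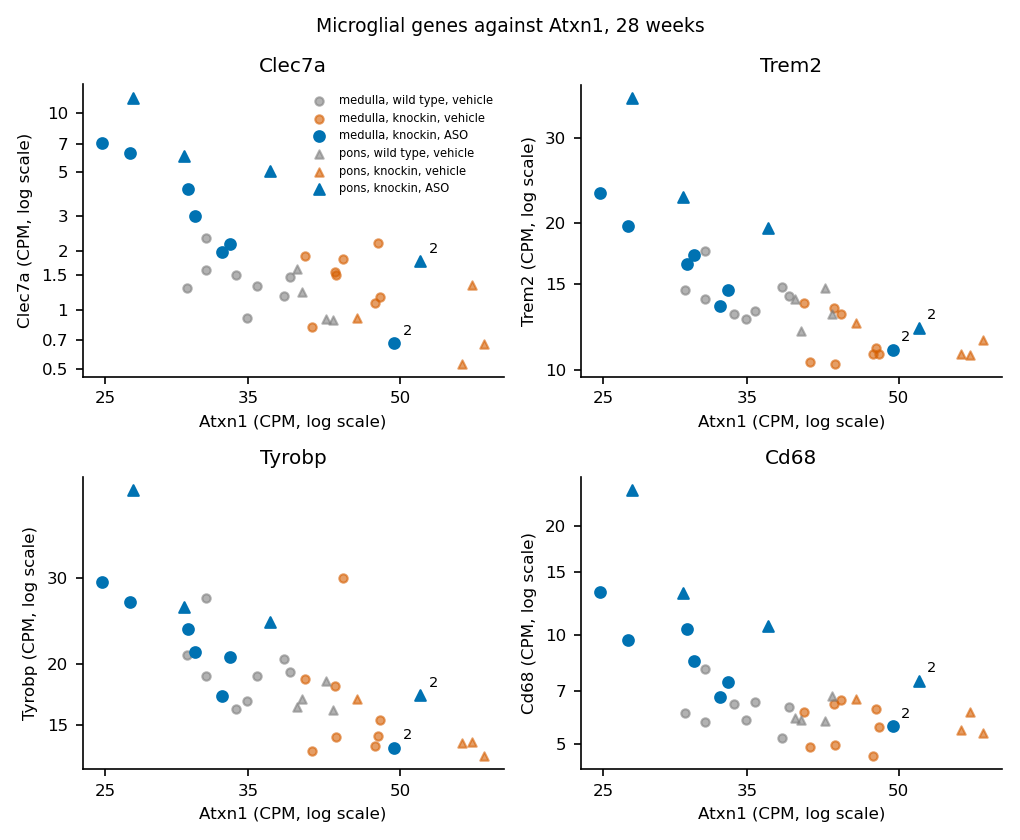
Clec7a, Trem2, Tyrobp and Cd68 (y axes, CPM, log scale) against Atxn1 (x axes, CPM, log scale) in the 28-week libraries. Circles are medulla and triangles pons, colours are groups, and the digit 2 marks the libraries labelled ASO replicate 2; Clec7a reaches 12 CPM in the pons library with 26.7 CPM of Atxn1, while wild type libraries stay at or below 2.32 CPM.

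The remaining called members of the activated list were a secreted lipid carrier (Apoe), a lipase (Lpl), surface proteins (Axl, Itgax and Cd52), chemokines (Ccl3 and Ccl6) and a galectin (Lgals3). Apoe, which astrocytes also make, had the shallowest slope with Axl, at -0.79 ± 0.08 (adjusted p = 0.00071) and -0.60 ± 0.08 (adjusted p = 0.0061). Itgax, an integrin of phagocytes, had a slope of -3.54 ± 0.52 (adjusted p = 0.019), with 0.476 and 0.935 CPM in the libraries labelled replicate 2 of medulla and pons and 4.23 and 12 CPM in replicate 1. Cst7, an inhibitor of lysosomal proteases, did not pass (slope -3.23, adjusted p = 0.078), nor did Gpnmb, a membrane glycoprotein of lipid-laden phagocytes (slope -2.51, adjusted p = 0.095). Gpnmb stood at 41.4 CPM in pons replicate 1 and at 4.07 to 9.69 CPM in the other pons ASO libraries. Unlike most of the list of microglia at rest, 3 genes, singled out after their values were seen, had slopes near 0: P2ry12, a nucleotide receptor, at -0.05 (adjusted p = 0.94), Tmem119, a membrane protein, at 0.06 (adjusted p = 0.92), and Sall1, a transcription factor also made by other cells, at 0.11 (adjusted p = 0.74). P2ry12 lay between 20.7 and 33.6 CPM in all 11 libraries, and Tmem119 between 14 and 18.9 CPM. These slopes had no fixed sign: without both libraries labelled replicate 2 they were 0.46, -0.12 and -0.15.

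The promoters of Clec7a, Trem2 and Cd68 are shown because these genes moved together across the 11 libraries. Each is the 250 bases before the RefSeq start of the gene on GRCm38.p6, 5′ to 3′ along the gene, and capitals mark GAGGAA, the purine core bound by the myeloid factor PU.1, or its reverse complement TTCCTC. For Clec7a (chr6:129472780-129473029, minus strand), the first of 2 listed starts was taken. Trem2 lies at chr17:48346151-48346400 on the plus strand and Cd68 at chr11:69666171-69666420 on the minus strand.
Clec7a: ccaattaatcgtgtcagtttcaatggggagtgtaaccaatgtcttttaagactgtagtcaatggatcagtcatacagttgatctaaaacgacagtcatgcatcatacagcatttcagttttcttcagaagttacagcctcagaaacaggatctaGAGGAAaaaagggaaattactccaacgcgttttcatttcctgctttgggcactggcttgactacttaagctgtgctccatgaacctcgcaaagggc
Trem2: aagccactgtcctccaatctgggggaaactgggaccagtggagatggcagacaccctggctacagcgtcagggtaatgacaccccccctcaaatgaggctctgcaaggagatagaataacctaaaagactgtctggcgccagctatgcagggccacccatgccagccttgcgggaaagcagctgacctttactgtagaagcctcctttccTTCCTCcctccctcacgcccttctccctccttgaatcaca
Cd68: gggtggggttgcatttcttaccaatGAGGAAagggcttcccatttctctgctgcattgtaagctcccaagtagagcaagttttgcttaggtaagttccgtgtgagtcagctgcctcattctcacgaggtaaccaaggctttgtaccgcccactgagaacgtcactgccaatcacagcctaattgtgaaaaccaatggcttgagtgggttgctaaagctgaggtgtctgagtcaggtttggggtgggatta
Each holds 1 match, which begins 96 bases before the start in Clec7a, 40 in Trem2 and 225 in Cd68. Over all 32851 RefSeq promoters of this length, 23.3% hold the motif on either strand, so a match is common and is given as a description only.

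The astrocyte genes were the other list with 11 calls, with smaller slopes than the genes of activated microglia. Lists with fewer or no calls had lower medians. Of 15 cholinergic motor neuron genes, none was called, but 13 slopes were negative with a median of -0.70. The reactive astrocyte, lymphocyte and red blood cell lists, given below, also had lower medians than the astrocyte list. Of 19 astrocyte genes, 11 were called, all negative, against a background of 0.534%; 18 of the 19 slopes were negative, with a median of -0.42. Called were transporters and channels (Slc1a2, Slc4a4, Slc7a10 and Aqp4), the gap junction protein Gja1, the enzymes Glul, Aldoc and Aldh1l1, the receptor Ntsr2, the transcription factor Sox9 and the membrane protein Mlc1. Not called were, among others, the potassium channel Kcnj10 (slope -0.47, adjusted p = 0.091) and the glutamate transporter Slc1a3 (slope -0.14, adjusted p = 0.82).

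Slc1a2 (chromosome 2, 102658659 to 102790784, plus strand), the main glutamate transporter of the forebrain and brainstem, held 1340, 789, 1300 and 1390 CPM in medulla ASO replicates 1 to 4 and 1460, 1340 and 1180 CPM in replicates 5 to 7. In pons it held 1460, 773, 1110 and 1220 CPM in replicates 1 to 4. Vehicle-treated knockin ranged from 577 to 955 CPM (medulla) and from 680 to 807 CPM (pons), and wild type from 1408 to 1558 and 1325 to 1417 CPM. The libraries labelled replicate 2 were thus inside the vehicle-treated knockin range, and the other 9 were above it. The slope was -0.86 ± 0.10 (SE), a 1.82-fold difference per doubling of Atxn1 (adjusted p = 0.002, exact two-sided permutation p = 0.0023, and 0.021 exchanged together). It was -0.62 without both libraries labelled replicate 2 (unadjusted p = 0.038, adjusted p = 1). In a fit of vehicle-treated libraries that shares no sample with the 11, Slc1a2 fell in knockin, by -0.91 in medulla and -0.91 in pons on the log2 scale (adjusted p = 1.2e-07 and 8.6e-06).

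Glul, which makes glutamine from glutamate, was at 1040 CPM (medulla) and 1110 CPM (pons) in the libraries labelled replicate 2, and 1490 to 1830 and 1310 to 1560 CPM in the other ASO libraries. Its slope was -0.54 ± 0.09 (adjusted p = 0.014), and -0.26 without both libraries labelled replicate 2 (unadjusted p = 0.26). Ntsr2, a neurotensin receptor of astrocytes, held 98.1 and 103 CPM in the libraries labelled replicate 2 against 126 to 138 CPM and 130 to 152 CPM in the others. The slope of Ntsr2 was -0.50 ± 0.07 (adjusted p = 0.0067), and -0.28 without those libraries (unadjusted p = 0.14). Gja1 had a slope of -0.69 ± 0.11 (adjusted p = 0.014), and -0.22 without them (unadjusted p = 0.41). For these 3 genes and Slc1a2, the slope over the remaining 9 libraries was smaller than over all 11, whereas for Clec7a, Trem2, Tyrobp and Cd68 it was larger; the difference between the lists was not tested.

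**Figure D3:**
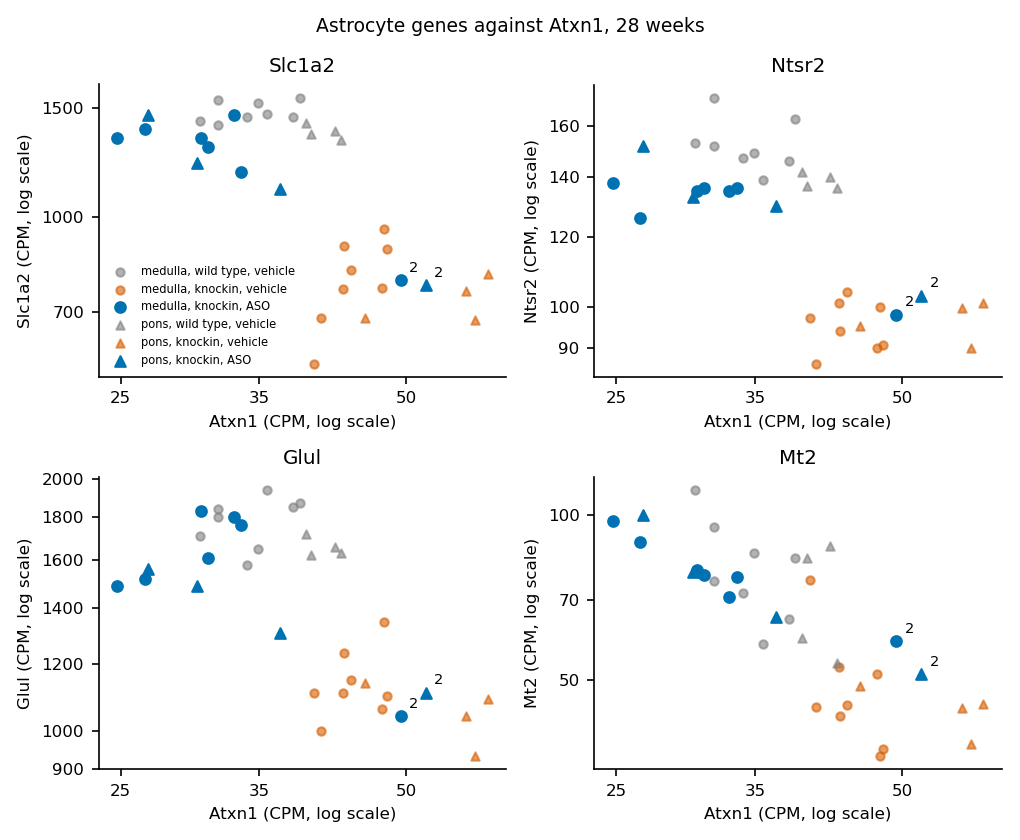
Slc1a2, Ntsr2, Glul and Mt2 (y axes, CPM, log scale) against Atxn1 (x axes, CPM, log scale) in the 28-week libraries, with the marks of the microglial plot. The libraries labelled ASO replicate 2 lie among or near the vehicle-treated knockin libraries, with Slc1a2 at 789 CPM (medulla) and 773 CPM (pons).

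Among genes with a mean log2 CPM of at least 1, the 10 of smallest adjusted p with a negative slope included Lgi4, a secreted glial protein needed for nerve myelination, Lxn, an inhibitor of carboxypeptidases, Chil1, a secreted chitinase-like protein made by astrocytes, Baalc, a membrane-associated protein, and the metallothioneins Mt1 and Mt2, which bind zinc and copper. Lgi4 was at 25.4 CPM (medulla) and 32 CPM (pons) in the libraries labelled replicate 2, and 38.8 to 46.7 and 40.6 to 51.3 CPM in the others (slope -0.76 ± 0.07, adjusted p = 0.00071). Lxn held 29.8 and 25.2 CPM there and 37.3 to 49.4 and 31.3 to 36.7 CPM in the others. Its slope was -0.66 ± 0.06 (adjusted p = 0.00071), and its exact two-sided permutation p of 0.00029 was the smallest the design allows. Chil1 had a slope of -1.01 ± 0.12 (adjusted p = 0.0031), and Baalc one of -0.57 ± 0.07 (adjusted p = 0.0045).

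Mt1 and Mt2 lie next to each other on chromosome 8 (94179082 to 94180327 and 94172664 to 94173568, both plus strand). Mt2 held 97.6, 58.8, 77.6 and 89.4 CPM in medulla ASO replicates 1 to 4, 70.8, 79.2 and 77 CPM in replicates 5 to 7, and 100, 51.3, 65.2 and 78.8 CPM in pons replicates 1 to 4. The order of Mt2 was the reverse of that of Atxn1 in medulla batch 1 and in pons. The slope was -0.82 ± 0.08 (adjusted p = 0.00071), and -1.17 without both libraries labelled replicate 2 (unadjusted p = 3.8e-05, adjusted p = 0.8). Mt1 had a slope of -0.73 ± 0.07 (adjusted p = 0.00081), with 111 and 94.7 CPM in the libraries labelled replicate 2 and 135 to 173 and 123 to 174 CPM in the others. Their promoters, 250 bases before the RefSeq starts on GRCm38.p6, are printed because the neighbours moved together; capitals mark the cores TGCGCNC and TGCACNC of the metal response element, on either strand. Mt1 lies at chr8:94178839-94179088 and Mt2 at chr8:94172368-94172617, both on the plus strand.
Mt1: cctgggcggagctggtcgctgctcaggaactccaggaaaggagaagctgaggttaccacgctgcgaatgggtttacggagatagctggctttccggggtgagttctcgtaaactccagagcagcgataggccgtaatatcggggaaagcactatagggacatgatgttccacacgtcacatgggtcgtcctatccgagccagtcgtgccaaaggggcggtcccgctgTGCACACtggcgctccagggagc
Mt2: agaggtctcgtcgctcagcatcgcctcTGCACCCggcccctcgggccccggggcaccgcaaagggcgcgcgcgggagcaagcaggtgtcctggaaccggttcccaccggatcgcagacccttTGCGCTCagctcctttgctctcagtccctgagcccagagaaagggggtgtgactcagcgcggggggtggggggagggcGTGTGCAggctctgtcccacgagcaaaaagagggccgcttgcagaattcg
In the bases shown, Mt1 holds 1 match, 23 bases before the RefSeq start. Its window ends at 94179088, inside the gene range given above, and bases beyond the window were not searched. Mt2 holds 3 matches, which begin 223, 128 and 50 bases before its RefSeq start, the last of them on the other strand. At least 1 of both cores occurs in 21.4% of all promoters of this length.

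Other cell types and pathways showed few calls. Among 15 reactive astrocyte genes, 1 was called, the lipid receptor S1pr3 (slope -0.81 ± 0.12, adjusted p = 0.01), and all 15 slopes were negative with a median of -0.62. Gfap, the intermediate filament of reactive astrocytes, had a slope of -1.21 but did not pass (adjusted p = 0.15). Gfap was at 422 CPM (medulla) and 394 CPM (pons) in the libraries labelled replicate 2, and 535 to 1060 and 524 to 1050 CPM in the others. Among 23 oligodendrocyte and myelin genes only Tspan2, a tetraspanin, was called (slope -0.63 ± 0.11, adjusted p = 0.02); its slope was -0.06 without both libraries labelled replicate 2. The GABA transporter Slc6a11 was the only call among 16 genes of glycine and GABA transmission (slope -0.55 ± 0.10, adjusted p = 0.021) with -0.09 without them. None of 24 cholesterol synthesis genes was called, although 23 had a negative slope (median -0.26); without both libraries labelled replicate 2, 9 of 24 were negative. Mvd, an enzyme of that pathway, had a slope of -0.35 (adjusted p = 0.27). None of 30 interferon response genes was called, and 27 of them had a positive slope (median 0.28). Without both libraries labelled replicate 2, 14 of the 30 were negative, with a median of 0.025. Irf7, a transcription factor of that response, had a slope of 0.21 (adjusted p = 0.7).

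Of 18 genes that take up, bind or cut oligonucleotides or sense nucleic acids, none was called (median slope 0.04). Markers of cells that could be carried over in dissection also gave no call: 14 meningeal genes had a median slope of 0.63, 14 choroid plexus genes 0.21, 5 red blood cell genes -0.50, 17 lymphocyte genes -0.58 and 17 Hox genes 0.32. All 14 meningeal slopes were positive; the mean log2 CPM of that list was 3.57 to 4.99 in medulla ASO libraries (3.93 in the library labelled replicate 2) and 3.83 to 5.21 in pons (highest in the library labelled replicate 2). All 5 red blood cell slopes were negative, and none was without both libraries labelled replicate 2; the list mean was 3.75 to 5.61 in medulla and 3.86 to 4.95 in pons. The lymphocyte list stood at -2.40 to -1.32 and -1.91 to -1.27, lowest in the library labelled replicate 2 of each tissue, with 13 of 17 slopes negative. The part of these cells in the results was not tested. With the Hox mean as a further term the fit called 114 genes, against 122 without it.

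Genes that rose with Atxn1 were few. Of the 8 called, 6 also rose in vehicle-treated knockin against wild type in medulla (background 7.92%), and 6 in pons (background 4.09%). Chdh, the mitochondrial choline dehydrogenase, was at 28.1 CPM (medulla) and 29.3 CPM (pons) in the libraries labelled replicate 2, against 14.7 to 20.4 and 11.8 to 16.7 CPM in the other ASO libraries. Vehicle-treated knockin libraries held 26.7 to 36.5 and 23.4 to 30.7 CPM, and wild type 11.9 to 17.6 and 11.5 to 15.7 CPM. The slope of Chdh was 1.00 ± 0.17 (adjusted p = 0.026, exact two-sided permutation p = 0.032, and 0.13 exchanged together), and 0.06 without both libraries labelled replicate 2, so it rested on them. Col9a2, a collagen chain, had a slope of 0.60 ± 0.10 (adjusted p = 0.019), and Dcdc2a, a doublecortin-domain protein, one of 0.51 ± 0.09 (adjusted p = 0.021). Without those libraries the slopes were 0.43 and 0.45 (unadjusted p = 0.18 and 0.11).

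None of 19 Capicua target genes was called (median slope 0.03, 8 of 19 negative). Without both libraries labelled replicate 2, 15 of the 19 were negative, with a median of -0.26. Etv4, an ETS transcription factor and Capicua target, was at 23.8 CPM (medulla) and 17.2 CPM (pons) in the libraries labelled replicate 2, and 12.7 to 15.3 and 11.1 to 13.3 CPM in the others. Its slope of 0.58 ± 0.13 missed the threshold (adjusted p = 0.085) and was -0.34 without both libraries labelled replicate 2 (unadjusted p = 0.2). The cyclin Ccnd2 had a slope of 0.74 ± 0.18 (adjusted p = 0.15), and the Capicua target Etv5 one of 0.26 ± 0.08 (adjusted p = 0.28), which turned to -0.10 without those libraries. Capicua itself (Cic) and the Atxn1 paralog Atxn1l had slopes of -0.04 and -0.03 (adjusted p = 0.94 for each), both of which change sign with scaling by the total count alone. Gmpr, a GMP reductase gene on the plus strand that overlaps the end of Atxn1, had a slope of -0.15 (adjusted p = 0.58). The sources used here do not give whether counting used strand.

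The 5 genes whose log2 CPM was most like that of Atxn1 within tissue and batch were Dcdc2a, Ints8, Relch, Cbfb and Hspa4, with Pearson's r of 0.947, 0.939, 0.929, 0.922 and 0.92 over 11 libraries. Spearman's rho was 0.882, 0.818, 0.8, 0.911 and 0.788, and the exact permutation p of r was 0.0032, 0.0052, 0.012, 0.0017 and 0.0069, or 0.0071, 0.01, 0.017, 0.0043 and 0.012 adjusted over 58 relations. They were picked for this likeness, so the values are a description. Without both libraries labelled replicate 2, the 2 farthest from the median of Atxn1, r was 0.714, 0.666, 0.541, 0.79 and 0.643 over 9 libraries (exact permutation p = 0.069 to 0.43), so r stayed positive but its p-value, over 216 orders, was above 0.05 for each.

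At 18 weeks, in 10 ASO libraries that the choice did not use, the same relation gave mostly the same signs. Atxn1 was 13.3, 38.4 and 20.8 CPM in medulla, 16.6, 50.8 and 24.2 CPM in pons and 32.1, 39.4, 20.2 and 50.3 CPM in cerebellum, in the order of the replicates. The library labelled replicate 2 held the most Atxn1 in medulla and in pons, and both of these share a header number. No fit left out both, so how far the 18-week slopes rest on them was not tested. Only 3 of 21373 genes passed (0.014%): Fcer1g, the Fc receptor chain that signals for phagocytes, Lgals3 and Gfap, all negative. The 18-week libraries share header numbers between tissues, and with that number as a correlation none of the 3 passed (adjusted p = 0.15 for each in limma-voom). None passed with a fixed block on the replicate number of the labels either (adjusted p = 0.95 for each in edgeR). In cerebellum the label numbers do not follow the header numbers, so that block does not group the libraries by header number. At an unadjusted p under 0.05 there were 1479 genes. No gene passed without any 1 of 9 libraries, and 13 passed without cerebellum replicate 3. Of the 114 genes with a negative slope at 28 weeks, 107 also had one at 18 weeks, 79 of them at an unadjusted p under 0.05 and 0 in the opposite direction; over all genes, 51.4% were negative at 18 weeks and 4.56% were negative at an unadjusted p under 0.05. The median slope of the 114 was -0.34, against -0.0071 over all genes. Cerebellum replicate 3, which held the least Atxn1 of its tissue, stood apart: its mean log2 CPM was 7.87 for ribosomal protein genes (6.75 to 6.87 in the other cerebellum libraries) and 7.36 for proteasome genes (6.51 to 6.56), and it held 479 CPM of Mt2 (91.9 to 104). Without it, 112 of the 114 genes were negative, 94 of them at an unadjusted p under 0.05, against 47.9% and 5.3% of all genes. Of the 8 genes with a positive slope, 1 was negative at 18 weeks.

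Clec7a at 18 weeks held 22.1, 1.66 and 5.58 CPM in medulla, 14.8, 1.34 and 6.35 CPM in pons, and 6.51, 4.99, 5.97 and 0.927 CPM in cerebellum. In each tissue the library with the most Atxn1 held the least Clec7a, and the slope was -2.14 ± 0.34 (unadjusted p = 0.0001, adjusted p = 0.08). All 19 genes of the activated microglia list had negative slopes, 16 of them at an unadjusted p under 0.05 (4.56% over all genes), with a median of -1.15. Astrocyte genes were negative in 18 of 19 cases, 8 of them at an unadjusted p under 0.05, with a median of -0.21. Slc1a2 differed between tissues at 18 weeks: the library labelled ASO replicate 2 was lowest in medulla (902 against 1510 and 1460 CPM) and pons (1090 against 1730 and 2000 CPM), while in cerebellum the lowest, at 515 CPM, was replicate 3, which held the least Atxn1. Its slope over all 10 libraries was -0.22 (unadjusted p = 0.26); the difference between tissues was not tested for single genes at this age.

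**Figure D4:**
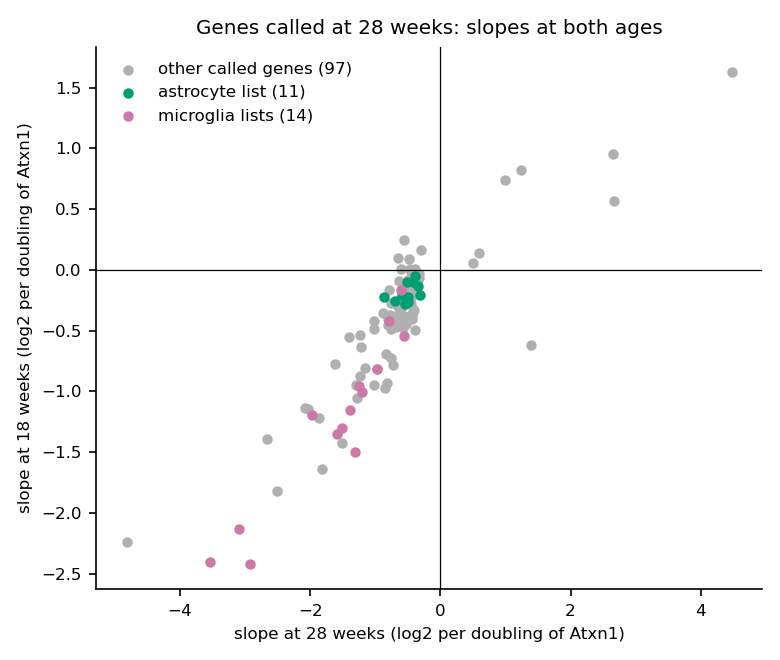
Slopes of the 122 genes called at 28 weeks (x axis) against their slopes at 18 weeks (y axis), both in log2 per doubling of Atxn1. Points are genes, 14 from the microglia lists, 11 from the astrocyte list and the others in grey; 107 of the 114 genes left of 0 also lie below 0.

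Medulla and pons did not differ detectably in these slopes: the test of the difference called no gene in edgeR (0%, 398 genes at an unadjusted p under 0.05) and none in DESeq2. Clec7a differed by 0.93 between pons and medulla (adjusted p = 1). Each tissue alone gave 4 calls in medulla and 1 in pons.

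The same slope was fitted where no ASO had been given. Among 12 vehicle-treated knockin libraries, 107 of 21637 genes were called (0.495%), 60 positive and 47 negative, and none of these is among the 122 genes. That count rested on single libraries: it was 0 without any 1 of 9 of them, 31 without medulla replicate 8, 380 without medulla replicate 4 and 1586 without medulla replicate 2. Of the 114 genes with a negative slope in ASO libraries, 84 were negative in vehicle-treated knockin, with a median of -0.29, 12 of them at an unadjusted p under 0.05 and 5 in the opposite direction. These shares, 10.5% and 4.39%, stand beside 9.25% and 8.97% over all genes. Among 12 wild type libraries edgeR called no gene (0%, 2104 at an unadjusted p under 0.05, and 128 with DESeq2). It called 24 without medulla replicate 5 and 17 without medulla replicate 4. Of the 114 genes, 113 were fitted in wild type, and 99 of these were negative there, with a median of -0.49. Over all genes 10843 of 20836 were negative in wild type, with a median of -0.031. The slope did not pass a test of difference between ASO and vehicle-treated knockin libraries for any of 22281 genes in edgeR (0%, 3333 at an unadjusted p under 0.05), while DESeq2 called 651. For Clec7a the ASO slope less the vehicle slope was -2.60 (adjusted p = 0.28), and for Slc1a2 it was -1.45 (adjusted p = 0.089).

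The called genes divide by how they stood in untreated knockin mice. In a fit of vehicle-treated libraries alone, 3424 of 20229 genes differed between knockin and wild type in medulla (16.9%) and 1996 of 19878 in pons (10%). These counts were 5218 without vehicle-treated knockin replicate 2 in medulla and, in pons, 5290 when replicate 4 of the vehicle-treated knockin was left out and 895 to 1277 when any other library was. Of the 114 genes with a negative slope, 74 fell in knockin medulla (background 9.01%) and none rose, and 72 fell in knockin pons (background 5.95%) and none rose. In both tissues 67 of them fell, against 726 of all 21338 genes tested. The fallen genes include Slc1a2, Glul, Gja1, Ntsr2, Chil1 and Lgi4, so the direction with less Atxn1 was opposite to that with the knockin allele. Another 35 genes were called in neither tissue, beside 17123 of all 21338 genes tested. Of these 35, 34 were fitted in medulla and 34 in pons. Their median slope was -1.24 at 28 weeks and -0.95 at 18 weeks. All 35 were negative at 18 weeks, 33 of them at an unadjusted p under 0.05. Clec7a (knockin against wild type 0.05 in medulla, adjusted p = 0.9, and -0.42 in pons, adjusted p = 0.39) and Cd68 (-0.14, adjusted p = 0.34, and -0.04, adjusted p = 0.85) are in this set. Over all 1810 genes that fell in knockin medulla, 79.9% had a negative slope, and of the 1598 that rose, 24.8% did, against 50.4% of all genes. In pons these shares were 84.5% and 27.4%. Without both libraries labelled replicate 2, 1074 of 1810 fallen genes and 830 of 1593 risen genes in medulla had a negative slope. In pons 749 of 1179 and 434 of 810 did, and over all genes 10607 of 21070. The shares over all 11 libraries thus rested largely on those libraries.

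To place each library between the genotypes, a knockin score was taken over the 3408 genes changed in medulla or the 1990 in pons, with wild type at 0 and vehicle-treated knockin at 1. Medulla ASO replicates 1 to 4 scored 0.507, 0.921, 0.481 and 0.542, and replicates 5 to 7 scored 0.49, 0.497 and 0.531. Pons replicates 1 to 4 scored 0.279, 0.707, 0.474 and 0.632. Vehicle-treated knockin libraries scored 0.942 to 1.084 in medulla and 0.792 to 1.107 in pons, and wild type -0.187 to 0.115 and -0.033 to 0.03. All 11 ASO libraries lay between the ranges of both groups, the library labelled replicate 2 highest in each tissue. The score genes were called between the same libraries that set 0 and 1, and that choice widens the distance between both groups. How far it lowers the scores of other libraries below 1 was not tested. The score rose by 0.376 per doubling of Atxn1 (exact two-sided permutation p = 0.038, n = 11 libraries), which missed the threshold with medulla and pons exchanged together (p = 0.097). Without both libraries labelled replicate 2 the slope was 0.179 (exact permutation p = 0.83, n = 9). The other 6 medulla libraries scored 0.481 to 0.542 while their Atxn1 ran from 24.8 to 33.5 CPM and their Clec7a from 1.97 to 7.06 CPM.

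**Figure D5:**
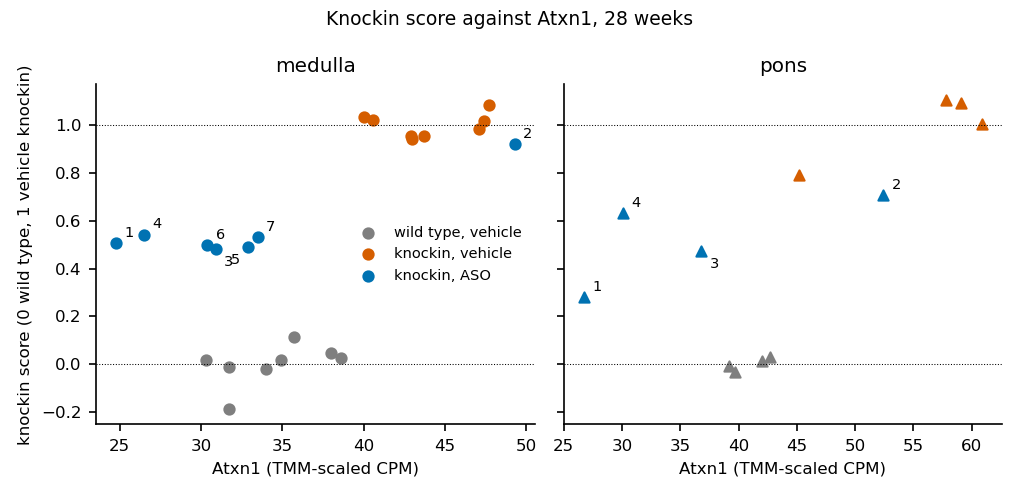
Knockin score (y axis, 0 for wild type and 1 for vehicle-treated knockin, dotted lines) against Atxn1 (x axis, TMM-scaled CPM) in medulla and pons at 28 weeks. Points are libraries and digits the replicate numbers of the ASO libraries; 6 medulla ASO libraries lie between 0.481 and 0.542, and replicate 2 at 0.921.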

How the data were processed

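RNA of dissected mouse medulla, pons and cerebellum was sequenced from stranded TruSeq libraries, per the labels' protocols. The authors deposited whole-number read counts per gene; per the submitters' processing notes, CASAVA 1.8, HISAT2 2.0.2, GRCm38, featureCounts of Subread, R 3.3.3 and DESeq2 1.14.1 were used. Of the low counts (1 to 20), 73.2% to 75.6% were even numbers in the 11 libraries, so a fragment may have added a count for each of its reads, and precision is then lower than the totals give (62.6 to 99.4 M). All 65 columns of 49670 gene IDs were kept (0 left out), and GENCODE vM21 named 49411 IDs.

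Counts were scaled with TMM over all libraries of a tissue and age and tested with edgeR 4.0.16 (robust quasi-likelihood test, filterByExpr at a minimum count of 10, adjusted p under 0.05 over all genes except Atxn1) in R 4.3.3, with limma 3.58.1 and DESeq2 1.42.0 as alternatives. The Atxn1 level was log2 CPM with a prior count of 0.5, centred within medulla batch 1, medulla batch 2 and pons, which leaves 7 residual degrees of freedom. On simulated counts of 21003 genes with 200 known slopes, the test recovered 47% of slopes of size 0.5 and 87% of size 1, with 11 false calls among 145. The simulated libraries were drawn independently, so these rates do not cover real libraries that share a header number. Permutations, list counts and the knockin score were computed in Python.

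Named genes are the 10 of smallest adjusted p in each direction with a mean log2 CPM of at least 1 and, where enough existed, the same sign in each batch and tissue, up to 2 of each list, a few preset genes and the neighbours of Atxn1, and the 5 genes of highest correlation with Atxn1, leaving out provisional symbols, of which a part is given; other members of the microglia and astrocyte lists, and Fcer1g, were named after their values were seen. The libraries, lists and tests were chosen with earlier results of these data known. Medulla batch 1 and pons libraries with the same replicate number share a number in the column headers. Their deviations from the group mean correlated over genes at 0.214, 0.415, 0.188 and 0.516 for ASO replicates 1 to 4. ASO libraries of unlike number correlated at -0.329 to 0.292, the highest being pons replicate 1 with medulla replicate 3. The shared numbers were taken to pair the libraries, which neither the labels nor these values settle. With the shared number as a correlation (consensus 0.114), limma-voom called 84 genes in place of 122. As a fixed term over 8 libraries the number takes up most of the Atxn1 difference, and no call was left. Alternatives were other scalings, filters, tools, Atxn1 scales, batch terms and sets of libraries, and each library left out in turn.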

Additional observations from a re-analysis of the deposited data

Results flagged for a closer look

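In groups of 4 and 7 ASO libraries, a library was singled out where its gap to the next, divided by the group's range, passed Dixon's limit (0.829 for 4 and 0.568 for 7). Chance passes that limit in about 1 in 20 groups. It was passed in 16 of 112 groups, and in 15 of these by the medulla library labelled ASO replicate 2. Atxn1 set the order of the libraries and most of the other genes were named for their relation to it, so the limit describes here how far that library stood from the rest, and the count is no test. That library was highest in Atxn1 at 49.3 CPM (gap over range 0.645), in Etv4 at 23.8 CPM (0.766) and in Chdh at 28.1 CPM (0.575), and its knockin score of 0.921 was the highest of the 7 (0.861). It was lowest in the astrocyte genes Slc1a2 at 789 CPM, Glul at 1040 CPM, Aldoc at 1270 CPM, Ntsr2 at 98.1 CPM and Sox9 at 17.7 CPM, with gaps over range of 0.57 to 0.699. It was also lowest in Chil1 at 10.5 CPM (0.805), Lgi4 at 25.4 CPM, Baalc at 18.3 CPM, Tspan2 at 174 CPM, Slc6a11 at 335 CPM and Mvd at 13.9 CPM. None of these groups is independent of the others, since the library is the same. In pons, Gpnmb in ASO replicate 1 stood at 41.4 CPM (0.849), in the library with the least Atxn1 of that tissue.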

How the results depend on the processing

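The number of genes related to Atxn1 at 28 weeks (122) was 399 with DESeq2, 10 with the rank of Atxn1, 45 with no medulla batch term, 4 in medulla alone, 1 in pons alone, 0 in medulla batch 2 alone (391 at an unadjusted p under 0.05 in edgeR), 0 without both libraries labelled replicate 2, 0 with a fixed replicate block, 247 without the 4 libraries lowest in Hox genes against their group (120 without the 3 of medulla alone; both chosen after seeing the data), and 6 to 183 with 1 library left out. The 18-week count (3) was 236 with DESeq2, 34 with no filter, 12 without cerebellum and 0 to 13 with 1 library left out. It was 0 with the header number as a correlation and 0 with the label number as a fixed block. The vehicle-treated knockin count (107) was 1465 with DESeq2, 67 with no filter and 0 to 1586 with 1 library left out. The wild type count (0) was 128, 6 and 0 to 24 in the same order, and DESeq2 called 651 genes for the difference between ASO and vehicle slopes. Knockin against wild type gave 1977 genes in medulla with a replicate block and 2616 to 5218 with 1 library left out. In pons, DESeq2 gave 3120 and leaving out 1 library 895 to 5290. That replicate block used the numbers of the labels, and knockin and wild type libraries of the same label number differ in header number. Within vehicle-treated knockin and within wild type, medulla batch 1 and pons libraries of the same number correlated at -0.237 to 0.569. These values do not settle whether such medulla and pons libraries are pairs. The score slope (0.376) was 0.423 in medulla, 0.322 in pons, 0.179 without both libraries labelled replicate 2, 0.376 with the replicate block (exact permutation p = 0.097) and 0.281 to 0.43 with 1 library left out. The causes were not tested.

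Of 38 called genes among 54 named, DESeq2 kept 38, limma-voom 33, the block as a correlation 29, the Hox term 31, and medulla alone 2. Slopes that changed sign in medulla batch 2 alone were those of Axl (0.103), P2ry12 (0.91), Tmem119 (-0.0267), Sall1 (-0.0836), Aldoc (0.223), Ntsr2 (0.0581), Slc7a10 (1.29), Sox9 (0.462), Tspan2 (0.257), Etv5 (-1.34) and Gmpr (0.754). The fixed replicate block takes up most of the Atxn1 difference and leaves little of it to fit. With that block the slopes that changed sign were Lpl (2.18), Lgals3 (3.28), Tmem119 (-2.62), Sall1 (-1.28), Cst7 (2.27), Sox9 (0.121), Slc1a3 (0.375), Gfap (0.301), Chdh (-1.27), Etv4 (-0.495), Etv5 (-0.293), Atxn1l (0.272), Cic (1.4) and Irf7 (-2.09). Without both libraries labelled replicate 2 they were P2ry12 (0.461), Tmem119 (-0.123), Sall1 (-0.146), Etv4 (-0.345), Etv5 (-0.0954) and Mvd (0.169). The others were P2ry12 by rank (0.008), Tmem119 (-0.0537) and Cic (0.0201) in medulla, Atxn1l in pons (0.0198), and Atxn1l (0.0046) and Cic (0.0044) scaled by the total count. With 1 library left out, slopes ran from -0.106 to 0.095 for P2ry12, from -0.109 to 0.2 for Tmem119 and from -0.172 to 0.0141 for Cic.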
